A study of Mus musculus with 51 samples.

Results

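The 8 genes described here encode subunits of Polycomb repressive complex 2 (PRC2) in the mouse: Ezh2, Ezh1, Eed, Suz12, Jarid2, Aebp2, Mtf2 and Phf19. They were taken by name, by a rule that holds no measured value but was set with earlier results of these data known, from the 20780 autosomal protein-coding genes of the annotation. Histone marks were read in the deposited 1 kb windows over each gene body and start site, and in the peaks that the deposited allelic tables assign to one of the 8 genes, which were 63 of 150793 peaks. In GRCm38 coordinates the genes lie at chr6:47530139-47595341 (Ezh2), chr11:101191115-101226463 (Ezh1), chr7:89954654-89980983 (Eed), chr11:79993106-80034123 (Suz12), chr13:44729474-44921643 (Jarid2), chr6:140622663-140678472 (Aebp2), chr5:108065674-108109004 (Mtf2) and chr2:34893757-34914026 (Phf19). The study profiled H3K4me3, H3K27me3 and H3K36me3 by native ChIP-seq, in which unfixed chromatin is cut with micrococcal nuclease, in the epiblast and the extraembryonic ectoderm (ExE) of embryonic day 6.5 embryos. Each library came from a pool of 4 epiblasts or 8 ExE. Replicates were separate pools, so the p-values measure the spread between pools.

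There were 3 kinds of embryo, all F1 hybrids between strains, so that reads over strain variants could be assigned to the maternal or the paternal allele. B6/CAST embryos had C57BL6/Babr mothers and CAST/EiJ (CAST) fathers, and CAST/B6 embryos were the reciprocal cross. matDKO/CAST embryos had mothers that carried floxed Dnmt3a and Dnmt3b alleles (Dnmt3a fl/fl, Dnmt3b fl/fl) with Zp3-cre, a Cre driven by a promoter active in growing oocytes, and CAST fathers. Oocytes of such females lack the DNA methylation laid down by Dnmt3a and Dnmt3b, whereas the embryos inherit intact paternal copies of both genes. These females were on a mixed B6 and 129 background, so the loss of oocyte methylation and the 129-derived part of the maternal genome cannot be told apart in a comparison of matDKO/CAST with B6/CAST. Each of the 18 combinations of mark, tissue and cross had 2 libraries, 36 in all, and 15 input libraries of chromatin without immunoprecipitation were deposited beside them.

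PRC2 is the enzyme complex that places methyl groups on lysine 27 of histone H3. Ezh2 or its paralog Ezh1 carries the catalytic domain and is active only when bound to Eed, which recognises H3K27me3 itself, and to Suz12, the scaffold. The accessory subunits define alternative forms of the complex, one with Jarid2 and Aebp2 and the other with a Polycomb-like protein such as Mtf2 or Phf19, and mouse embryos that lack a core subunit fail around gastrulation. Here the complex is not the measurement: the data are the histone marks on the genes that encode it, where H3K4me3 marks gene starts at CpG islands and active promoters, H3K36me3 follows transcription through gene bodies, and H3K27me3 is the mark the complex itself makes.

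ChIP libraries held 2090000 to 22900000 mapped reads and input libraries 7170000 to 90600000, rounded to 3 digits. Summed H3K4me3 at the start sites of 7 epiblast markers was 153 to 237 RPKM (reads scaled to window length and to the library's total) in the 6 epiblast libraries and 47.8 to 93.0 in the 6 ExE libraries. For 9 ExE markers the sums were 96.4 to 155 and 128 to 210. Markers of 2 neighbouring tissues moved with the tissue too: 10 visceral endoderm markers summed to 71.7 to 119 RPKM of H3K4me3 in epiblast and 107 to 163 in ExE, with H3K36me3 sums of 4.19 to 6.72 and 11.6 to 17.1, and 5 decidua markers summed to 28.2 to 40.6 and 18.8 to 24.8 of H3K4me3. The part of other cells in the results below was not tested, and in these bulk samples fewer marked cells and less mark per cell cannot be told apart.

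The promoters of the members the results turn on, and of the catalytic subunit, are shown first, since only Phf19 had an H3K27me3 peak over the start site used here, the transcript start with the most H3K4me3. Each sequence is the 250 bases directly upstream of the RefSeq start (assembly GRCm38.p6), 5′ to 3′ on the gene's own strand, with CG dinucleotides in capitals.
Phf19, chr2:34913977-34914226, minus strand: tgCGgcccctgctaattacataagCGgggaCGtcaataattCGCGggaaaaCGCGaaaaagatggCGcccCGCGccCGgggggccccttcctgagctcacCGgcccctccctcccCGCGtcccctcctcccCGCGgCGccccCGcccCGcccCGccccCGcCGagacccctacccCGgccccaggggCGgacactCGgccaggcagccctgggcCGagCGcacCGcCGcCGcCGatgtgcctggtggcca
Eed, chr7:89980977-89981226, minus strand: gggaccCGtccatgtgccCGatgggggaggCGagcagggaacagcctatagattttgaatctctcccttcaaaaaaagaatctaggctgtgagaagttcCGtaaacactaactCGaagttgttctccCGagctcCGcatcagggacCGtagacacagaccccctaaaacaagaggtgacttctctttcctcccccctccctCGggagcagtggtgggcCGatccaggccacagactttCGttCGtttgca
Ezh2, chr6:47595031-47595280, minus strand: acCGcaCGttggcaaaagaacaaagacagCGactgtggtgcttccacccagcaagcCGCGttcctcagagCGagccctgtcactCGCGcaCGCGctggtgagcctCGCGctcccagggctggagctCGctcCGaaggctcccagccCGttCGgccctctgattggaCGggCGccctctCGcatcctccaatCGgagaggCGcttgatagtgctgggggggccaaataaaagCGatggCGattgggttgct
Suz12, chr11:79992856-79993105, plus strand: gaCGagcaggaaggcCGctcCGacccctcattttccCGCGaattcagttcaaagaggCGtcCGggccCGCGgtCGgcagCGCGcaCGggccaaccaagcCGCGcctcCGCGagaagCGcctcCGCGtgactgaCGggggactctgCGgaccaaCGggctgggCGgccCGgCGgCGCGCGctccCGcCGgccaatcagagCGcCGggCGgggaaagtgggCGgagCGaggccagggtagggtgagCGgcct

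Among 31396 RefSeq promoters of the same length the median held 6 CG dinucleotides. The members had 12 listed promoters. They held 31 at Phf19, 37 at Suz12, 23 at Ezh2, 14 at Ezh1, 12 at Eed, 23 and 22 at the 2 Jarid2 starts, 23 and 2 at the 2 Mtf2 starts, and 14, 1 and 3 at the 3 Aebp2 starts, so each member had at least 1 start above that median, and Aebp2 and Mtf2 also had starts below it. The promoter of Phf19, with 75.2% G and C, was second to that of Suz12 in its CG count. The letters TTTCCCGC, searched on both strands, were present in the windows of Phf19 and Suz12 and in 0.885% of all promoters; the related letters TTTCGCGC, TTTGCCGC and TTTGGCGC were each present in fewer than that, and any of these 4 in 1.84%. A match describes the letters only.

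In the deposited peak lists, which were called separately for each wild-type cross and tissue, the 3 marks divided the members as follows. H3K4me3 peaks overlapped the start site of 8 of 8 members in all 4 lists, against 70.5% of all genes in B6/CAST epiblast, 69% in CAST/B6 epiblast, 71.5% in B6/CAST ExE and 68.9% in CAST/B6 ExE. H3K27me3 peaks overlapped the start of 1 of 8 members, Phf19, in each of the 4 lists, against 21.8, 24.4, 31.4 and 35.6% of all genes in the same order. Away from that start, the allelic tables held an H3K27me3 peak over the 5′ end of Aebp2 in epiblast (chr6:140620500-140623500) and in ExE (chr6:140620000-140623500), near the listed start with 1 CG, and a peak of 1 kb within Jarid2 in epiblast (chr13:44869000-44870000). H3K36me3 peaks overlapped the bodies of 6, 7, 7 and 8 members, against 42.6, 49.1, 50.3 and 54.5% of genes. Phf19 was the member without an H3K36me3 peak in both epiblast lists and in B6/CAST ExE, and Ezh1 had none in B6/CAST epiblast. Some of these peaks reached far beyond the member and were assigned to a neighbour in the allelic tables: Ezh2 lay in H3K36me3 peaks of 135.5 kb in epiblast and 146 kb in ExE assigned to Cul1, Aebp2 in an epiblast peak of 136.5 kb assigned to Plekha5, and Ezh1 in an ExE peak of 145 kb assigned to Tubg2.

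**Figure D1:**
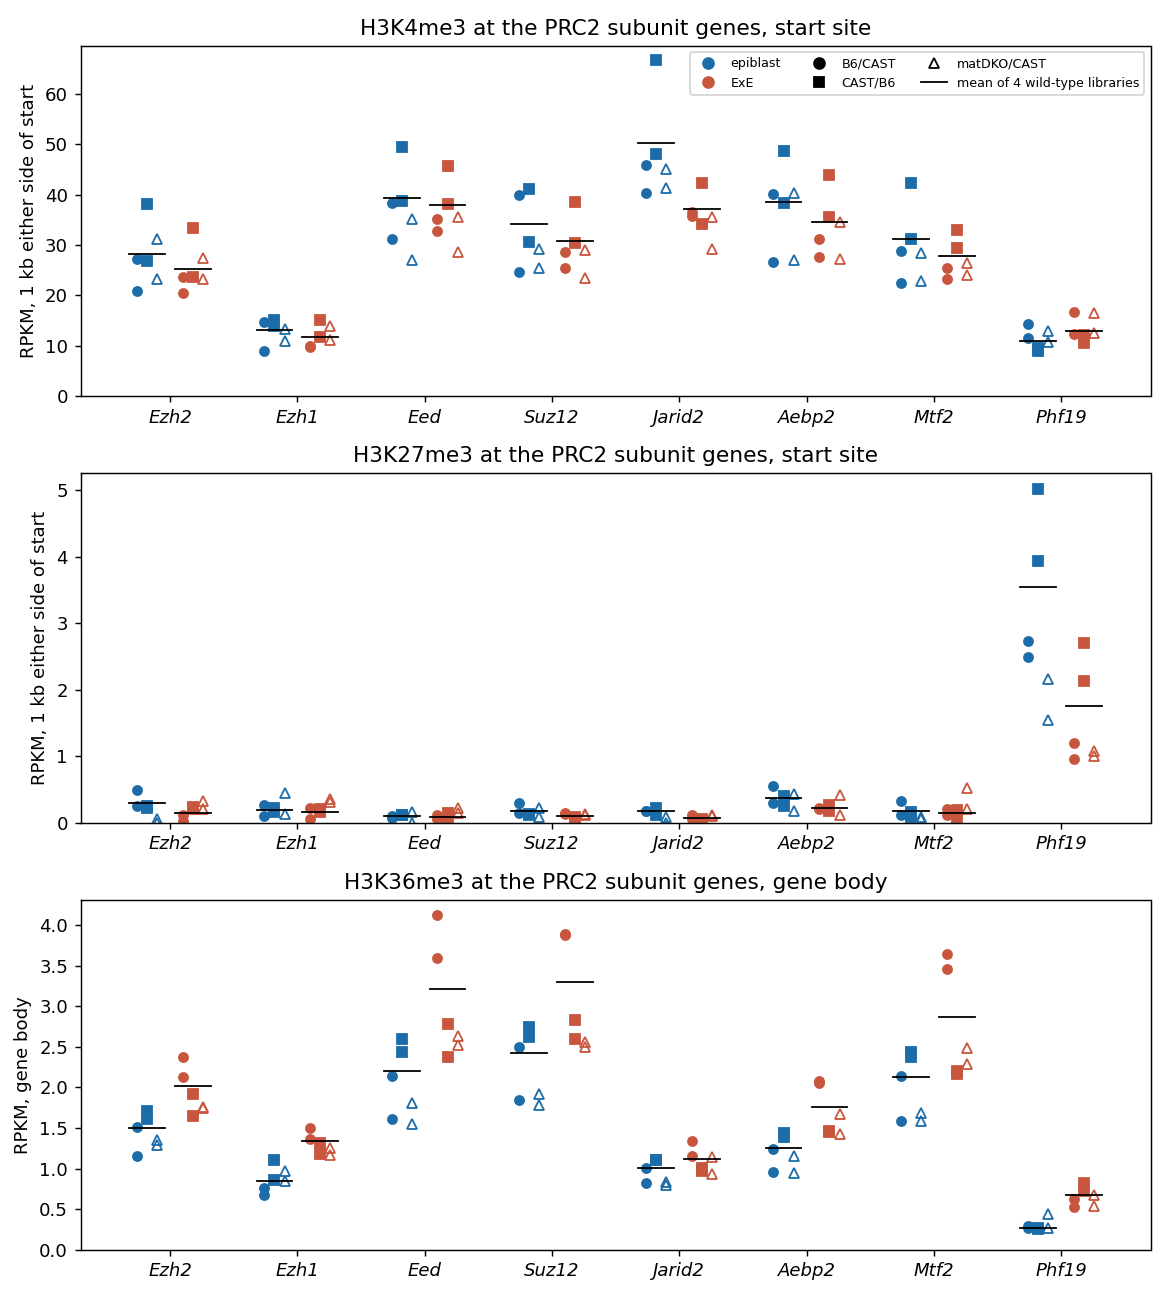
Deposited RPKM of each ChIP library at the 8 PRC2 subunit genes, for H3K4me3 within 1 kb of the start site, H3K27me3 within 1 kb of the start site and H3K36me3 over the gene body; each point is 1 library, and colours and symbols give the tissue and the cross. Phf19 is the gene with H3K27me3 points at 0.964 RPKM or above in all 12 libraries, and it has the lowest H3K36me3.

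Levels of H3K4me3 at the start sites were compared next, as the mean RPKM of the windows within 1 kb of the transcript start with the most H3K4me3 over all libraries. In wild-type epiblast the catalytic subunit Ezh2 had 28.3 ± 7.19 RPKM (SD, n = 4) and its paralog Ezh1 13.2 ± 2.81. The core subunits stood higher, Eed at 39.4 ± 7.53 and Suz12 at 34.1 ± 7.86 RPKM. Of the accessory subunits, Jarid2 had 50.2 ± 11.5, Aebp2 38.5 ± 9.05, Mtf2 31.2 ± 8.31 and Phf19 11.0 ± 2.42 RPKM. The order thus ran from Jarid2 down to Phf19, and neighbours in it differed by less than their spread, except for the step from Ezh2 to Ezh1. The median of all genes was 10.8 RPKM and the 90th percentile 30.3, which placed Jarid2, Eed, Aebp2, Suz12 and Mtf2 above that percentile and Ezh1 and Phf19 near the median. In wild-type ExE Eed led with 37.9 ± 5.64 (n = 4) and Jarid2 followed with 37.2 ± 3.48, and Ezh1, at 11.6 ± 2.51, and Phf19, at 12.9 ± 2.65, were again last.

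No member's H3K4me3 passed the test between the tissues, in which limma compared ExE with epiblast over both wild-type crosses on log2(RPKM + 0.5): 0 of 8 members were called, against 9.91% of all genes. The member with the largest difference was Jarid2, the subunit that helps recruit the complex. Its 4 wild-type epiblast libraries read 45.8 and 40.3 RPKM in B6/CAST and 66.7 and 48.2 in CAST/B6, and its ExE libraries read 36.6 and 35.8 in B6/CAST and 34.3 and 42.2 in CAST/B6. The ranges overlapped between crosses but not within either cross, and the ExE minus epiblast difference was -0.41 on the log2 scale (SE 0.15, limma adjusted p = 0.158, unadjusted p = 0.0259). Jarid2 was also the 1 member at an unadjusted p under 0.05. The matDKO/CAST libraries read 45.2 and 41.3 RPKM in epiblast and 29.2 and 35.5 in ExE.

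On the deposited scale Phf19 was the only member whose estimate was above 0, at 0.22 (SE 0.15, adjusted p = 0.520). Its epiblast libraries read 14.2 and 11.5 RPKM in B6/CAST and 9.46 and 8.89 in CAST/B6, and its ExE libraries 16.7, 12.3, 10.6 and 12.1, so the groups overlapped. The other 6 members had differences of -0.17 (Ezh1, adjusted p = 0.762) to -0.05 (Eed, adjusted p = 0.961). With edgeR on whole reads recovered from the RPKM values, 2 of 8 members were called, Jarid2 at -0.33 and Phf19 at 0.33, among 4756 genes called (23.1%) against 2059 with limma, and quantile normalization called the same 2. Under both, Eed was also above 0 (0.0349 with edgeR and 0.0460 after quantile normalization). After enrichment normalization all 8 members were above 0, Jarid2 at 0.16 (limma adjusted p = 0.620) and Phf19 highest at 0.78 and called (adjusted p = 0.0478), with a median of all genes at 0.36, so the direction of the Jarid2 difference depended on the scaling. Of all calls, 18.8% were higher in ExE on the deposited scale, 81.8% after normalization to each library's enrichment and 50.4% after quantile normalization, so the side of H3K4me3 calls depended on the scaling. The tissue difference did not differ between the crosses by limma's interaction test for any of the 8 members, against 0% of all genes called.

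H3K27me3 set Phf19 apart. Phf19 encodes a Polycomb-like subunit with a Tudor domain that binds H3K36me3 and can bring PRC2 to chromatin, so that the complex's own mark lay on the gene of one of its subunits. At its start site the H3K27me3 level was 2.74 and 2.49 RPKM in B6/CAST epiblast and 5.01 and 3.93 in CAST/B6 epiblast, against 1.20 and 0.964 in B6/CAST ExE and 2.71 and 2.13 in CAST/B6 ExE. Within each cross every epiblast library was above every ExE library, whereas across crosses the ranges met, since CAST/B6 was higher than B6/CAST in both tissues. The wild-type means were 3.54 ± 1.16 RPKM in epiblast and 1.75 ± 0.812 in ExE (SD, n = 4), the 92.4 and 84.4 percentiles of all genes. Input libraries held 0.458 ± 0.0734 RPKM there in epiblast (n = 6) and 0.660 ± 0.184 in ExE (n = 4). The start of Phf19 overlaps the gene Gm13448, so the marks there cannot be divided between them.

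H3K27me3 at the Phf19 start was lower in ExE by limma: the ExE minus epiblast difference was -0.87 (SE 0.13, adjusted p = 0.00317), one of 2 members called of 8, both lower, against 15.7% of all genes called and 10.1% called lower. Within each cross Phf19 was the 1 member called, at -0.98 within B6/CAST (adjusted p = 0.0314, 2.29% of all genes called) and -0.77 within CAST/B6 (adjusted p = 0.0441, 5.5% called), and the interaction between tissue and cross was called for 0 of 8 members and 0% of all genes. It remained called when any 1 of the 12 H3K27me3 libraries was left out, from -0.95 to -0.79, and edgeR on recovered reads gave -1.01. In matDKO/CAST the libraries read 2.16 and 1.54 RPKM in epiblast and 1.07 and 1.00 in ExE, which do not overlap either, and the difference there was -0.60 (adjusted p = 0.113). Of all calls at start sites, 35.7% were higher in ExE on the deposited scale and 49.1% after quantile normalization, and Phf19 kept its direction under both, at -0.77 after quantile normalization.

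Over the start sites used here, the other 7 members had H3K27me3 within or below the range of input. Their wild-type means were 0.105 RPKM (Eed) to 0.375 (Aebp2) in epiblast and 0.0701 (Jarid2) to 0.219 (Aebp2) in ExE, where input libraries held 0.194 to 0.932 RPKM over the members' start sites. The second call was made at such levels: Jarid2 read 0.173, 0.183, 0.225 and 0.125 RPKM in the 4 epiblast libraries and 0.0621, 0.115, 0.0582 and 0.0453 in the 4 ExE libraries, all within or below the range of input, with a difference of -0.25 (SE 0.07, adjusted p = 0.0398). The tissues did not overlap, but that call was lost in 7 of the 12 fits that left out 1 library: without B6/CAST epiblast replicate 1 (adjusted p = 0.0736) or 2 (0.108), B6/CAST ExE replicate 1 (0.140) or 2 (0.0625), CAST/B6 epiblast replicate 1 (0.117), or CAST/B6 ExE replicate 1 (0.0970) or 2 (0.128). It was also lost with edgeR (adjusted p = 0.106).

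Ezh2 was the third member at an unadjusted p under 0.05, with libraries at 0.493, 0.257, 0.247 and 0.218 RPKM in epiblast and 0.0207, 0.115, 0.233 and 0.204 in ExE. Its difference was -0.32 (SE 0.11, adjusted p = 0.0725), it was called by edgeR at -1.23 and by limma without B6/CAST epiblast replicate 2 (-0.42, adjusted p = 0.0428), and its tissues overlapped. For Ezh1, Eed, Suz12, Aebp2 and Mtf2 the differences were -0.27 to -0.03 and none was called by either tool.

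Over whole gene bodies no member's H3K27me3 was called by limma or edgeR (0 of 8, against 20.6% of all genes by limma), and 1 member, Phf19, was at an unadjusted p under 0.05. The Phf19 body held 1.45 and 1.33 RPKM in B6/CAST epiblast, 2.84 and 2.21 in CAST/B6 epiblast, 1.24 and 1.35 in B6/CAST ExE and 1.86 and 1.88 in CAST/B6 ExE. In B6/CAST the tissues overlapped, in CAST/B6 they did not, and the difference over both was -0.21 (SE 0.09, adjusted p = 0.143). After quantile normalization it was called, at -0.31. Start site and body were not tested against each other.

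The extent of the Phf19 domain also varied between lists. The H3K27me3 peak over the start spanned chr2:34907001-34918500 (11.5 kb) in B6/CAST epiblast and chr2:34877001-34920000 (43 kb) in CAST/B6 epiblast. In ExE it spanned chr2:34906501-34929000 (22.5 kb) in B6/CAST and chr2:34906001-34929500 (23.5 kb) in CAST/B6. In both ExE lists the peak reached farther upstream of the gene and ended within it, and in epiblast the extent differed between the crosses. In the combined allelic tables, a single epiblast peak of 43.5 kb at chr2:34876500-34920000 covered 100% of the gene, which is on the minus strand, and was assigned to the neighbouring gene D730039F16Rik. The ExE table held 1 peak of 27 kb at chr2:34874500-34901500, assigned to D730039F16Rik, and 1 of 23.5 kb at chr2:34906000-34929500, assigned to Phf19, which together covered 77.8% of the gene.

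Between these 2 ExE peaks lay 4.5 kb of the Phf19 gene, 8.02 to 12.5 kb downstream of its start, which was chosen for description after its values were seen. An H3K4me3 peak within the gene overlapped this stretch in both tissues, at chr2:34904000-34906500 in epiblast and chr2:34902500-34906500 in ExE, and an H3K36me3 peak of 23 kb at chr2:34885000-34908000 spanned it in ExE only, with none in the epiblast table. Over its 4 windows H3K27me3 was 0.333 to 0.608 RPKM in the 4 wild-type epiblast libraries and 0.0777 to 0.273 in the 4 ExE libraries. H3K36me3 there was 0.161 to 0.481 RPKM in epiblast and 0.646 to 1.06 in ExE, and H3K4me3 was 1.23 to 2.42 in epiblast and 1.94 to 4.38 in ExE. The first 2 ranges do not overlap and the third does, and no test was made of a stretch picked from the same data. In matDKO/CAST the first 2 overlapped between the tissues. H3K27me3 read 0.164 and 0.476 RPKM in epiblast and 0.230 and 0.339 in ExE, and H3K36me3 0.120 and 0.668 against 0.595 and 0.701. H3K4me3 there, at 2.64 and 2.12 against 4.23 and 3.41, did not overlap. H3K27me3 was low in this stretch in epiblast as well, so its position in the middle of the gene was common to both tissues.

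**Figure D2:**
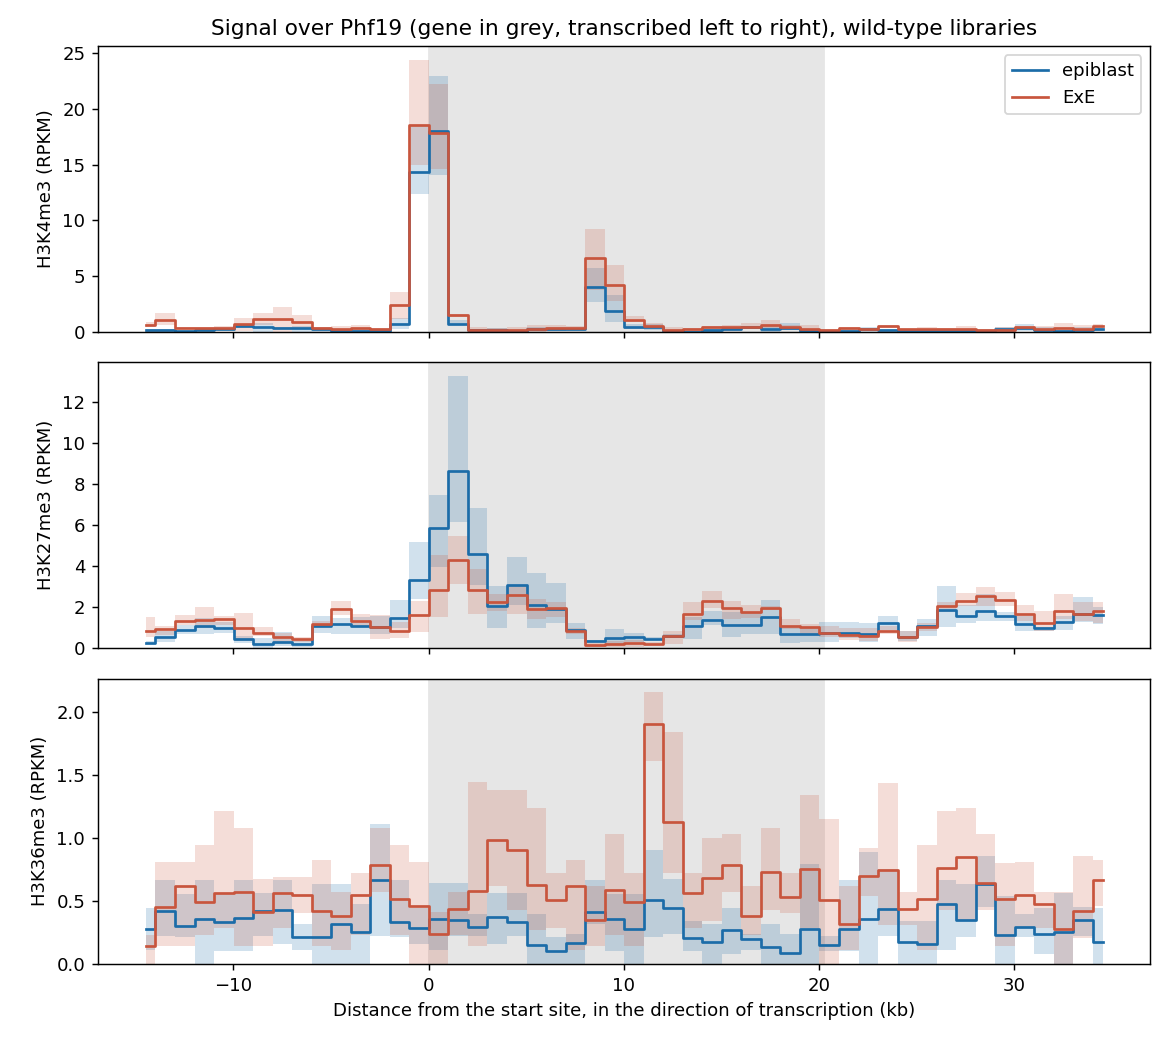
Mean RPKM of the 1 kb windows around the Phf19 start site for H3K4me3, H3K27me3 and H3K36me3 in wild-type epiblast and ExE, by distance from the start in kb; lines are means of 4 libraries and bands run from the lowest to the highest library. H3K27me3 at the start is higher in epiblast (mean 3.54 RPKM) than in ExE (1.75), it falls to its lowest in the gene about 8 to 12 kb downstream, and H3K36me3 over the gene is higher in ExE.

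H3K36me3, the mark left by transcription elongation, was higher in ExE over the bodies of most members. Limma called 7 of 8 members, all 7 higher in ExE, against 37.2% of all genes called and 31% called higher, and only Jarid2 was not called, at 0.10 (SE 0.06, adjusted p = 0.280). These directions rested on the deposited scale. After enrichment normalization only Ezh1 and Phf19 were called higher, and Jarid2 (-0.13), Suz12 (-0.0321) and Mtf2 (-0.0436) had estimates below 0. After quantile normalization only Phf19 was called higher, and Ezh2 (-0.0453), Suz12 (-0.0173), Aebp2 (-0.00669) and Mtf2 (-0.0494) were below 0, and Jarid2 was called lower (-0.24). The share of calls that were higher in ExE over all genes was 83.3% as deposited, 68.3% after enrichment normalization and 41.7% after quantile normalization. Phf19 was called higher under each of these.

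Phf19 had the largest difference of the members. Its body held 0.263, 0.296, 0.249 and 0.273 RPKM of H3K36me3 in the 4 wild-type epiblast libraries and 0.627, 0.522, 0.820 and 0.717 in the 4 ExE libraries. No ExE library was as low as any epiblast library, and the means were 0.270 ± 0.0196 and 0.671 ± 0.127 RPKM (SD, n = 4), the 11.9 and 57.0 percentiles of all genes. The difference was 0.60 (SE 0.08, limma adjusted p = 0.00166), with 0.46 within B6/CAST (adjusted p = 0.0150) and 0.74 within CAST/B6 (adjusted p = 0.0257). In matDKO/CAST the libraries read 0.261 and 0.445 RPKM in epiblast and 0.541 and 0.672 in ExE. Input over the same gene body was 0.525 ± 0.0601 RPKM in epiblast (n = 6) and 0.629 ± 0.0804 in ExE (n = 4), so that H3K36me3 on Phf19 lay below input in epiblast and near it in ExE.

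At the same gene, then, H3K27me3 at the start was lower and H3K36me3 over the body higher in ExE, both in each wild-type cross. This was the only member with calls of opposite sign for the 2 marks under each scaling that was tried. The share of either change that comes from other cells in the dissections was not tested, and the visceral endoderm marker sums given above were higher in ExE for H3K36me3 and lower for H3K27me3, at 13.5 to 29.2 RPKM in epiblast and 9.11 to 14.7 in ExE.

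**Figure D3:**
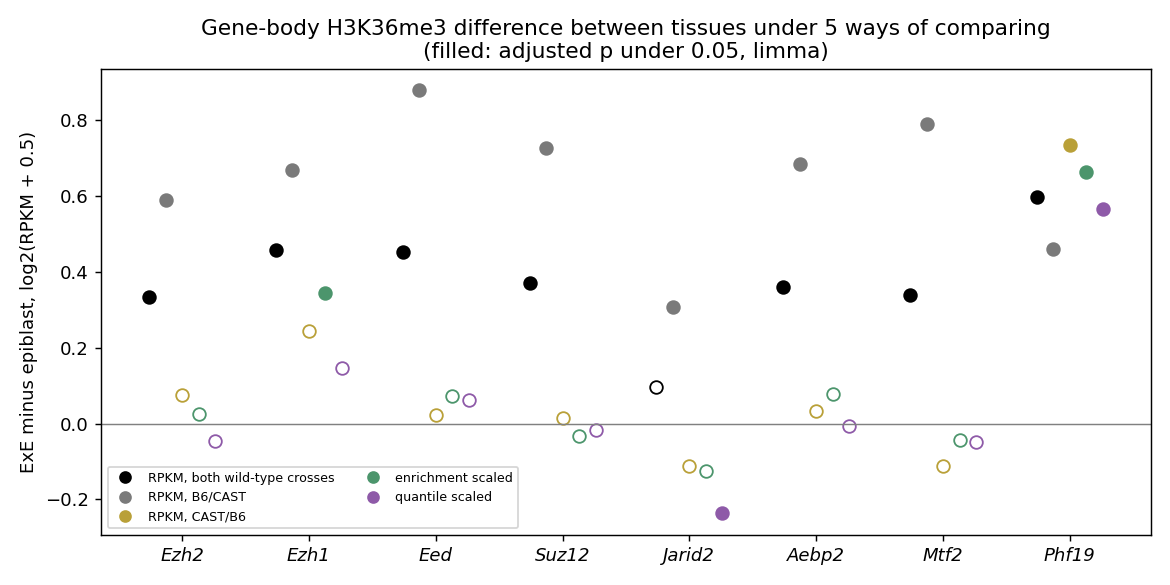
Difference in gene-body H3K36me3 between ExE and epiblast (log2, ExE minus epiblast) for each PRC2 subunit gene, on the deposited scale, after enrichment normalization, after quantile normalization, and within each wild-type cross; filled points have a limma adjusted p under 0.05. Phf19 is filled in each of the 5 settings, and Mtf2 runs from 0.79 within B6/CAST to -0.11 within CAST/B6.

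The core subunits carried much H3K36me3 in both tissues, and on the deposited scale their tissue difference varied with the cross. Suz12 had 2.43 ± 0.398 RPKM in epiblast and 3.30 ± 0.683 in ExE (SD, n = 4), the 98.8 percentile of all genes in each, and Eed had 2.20 ± 0.436 and 3.22 ± 0.788, the 98.3 and 98.7 percentiles. By library, Eed read 2.14 and 1.61 RPKM in B6/CAST epiblast, 4.12 and 3.59 in B6/CAST ExE, 2.60 and 2.44 in CAST/B6 epiblast, and 2.37 and 2.78 in CAST/B6 ExE. Thus the tissues were far apart in B6/CAST and overlapped in CAST/B6. The same arrangement held for Suz12, with 2.49 and 1.85 against 3.88 and 3.89 RPKM in B6/CAST and 2.63 and 2.74 against 2.60 and 2.83 in CAST/B6. Mtf2, a Polycomb-like subunit that binds CpG-rich DNA, read 2.14 and 1.58 against 3.64 and 3.46 in B6/CAST and 2.43 and 2.38 against 2.17 and 2.21 in CAST/B6, where the ExE libraries were the lower ones.

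Taken cross by cross, a comparison chosen after the data had been seen, limma called 8 of 8 members higher in ExE within B6/CAST (39.2% of all genes called and 30.7% called higher), with differences up to 0.88 at Eed and 0.79 at Mtf2. Within CAST/B6 it called 1 of 8, Phf19 (4.72% of all genes), with Ezh1 at 0.25 (adjusted p = 0.169) and the other 6 members between -0.11 and 0.08. Within matDKO/CAST it called 3 of 8 (13.7% of all genes), Eed at 0.50, Mtf2 at 0.44 and Aebp2 at 0.40. The difference between the wild-type crosses was tested as an interaction and was called for 4 of 8 members, against 8.55% of all genes called and 7.02% called on this side: Mtf2 at -0.90 (adjusted p = 0.0378), Eed at -0.86 (0.0396), Suz12 at -0.71 (0.0413) and Aebp2 at -0.65 (0.0419), each CAST/B6 minus B6/CAST. Ezh2 (-0.51, adjusted p = 0.0624), Ezh1 (-0.42) and Jarid2 (-0.42) were not called, nor was Phf19, at 0.27 (adjusted p = 0.276), the 1 member on the other side of 0. These interaction calls held on the deposited scale only: 0 of 8 members were called after enrichment normalization (0.0914% of all genes), with Mtf2 at -0.27 and Eed at -0.21, and 0 of 8 after quantile normalization (0% of all genes), with Mtf2 at -0.20 and Eed at -0.14.

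Of the remaining members, Ezh2 had 1.50 ± 0.242 RPKM of H3K36me3 in epiblast and 2.02 ± 0.309 in ExE (n = 4), with a difference over both crosses of 0.33 (limma adjusted p = 0.00957). Ezh1 had 0.846 ± 0.185 and 1.34 ± 0.131, and its libraries did not overlap between the tissues: 0.755, 0.673, 1.10 and 0.855 RPKM in epiblast and 1.36, 1.50, 1.18 and 1.31 in ExE. Its difference was 0.46 (SE 0.07, limma adjusted p = 0.00224). Like Phf19, Ezh1 was called higher by limma on the deposited scale, by limma after enrichment normalization and by edgeR, but it was not called after quantile normalization. Aebp2 had 1.26 ± 0.217 and 1.76 ± 0.348 RPKM, and Jarid2 1.01 ± 0.132 and 1.12 ± 0.168. With edgeR 5 of 8 members were called (41.7% of all genes), without Ezh2 (adjusted p = 0.0553), Mtf2 and Jarid2, whose edgeR estimate was below 0 (-0.0923).

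The other genes of the Polycomb and methyltransferase pathways give the frame for these counts. For H3K36me3, 2 of 4 other PRC2 components were called higher in ExE (Phf1 at 0.49 and Lcor at 0.39) and 0 lower, as were 12 of 20 genes of PRC1, the second Polycomb complex, with 2 lower. The largest of the 12 were Bmi1, at 0.71, and Cbx7, at 0.63. Genes of the H3K4 methyltransferase complexes were called higher in 8 of 11 cases and lower in 0, led by Ash2l (0.56) and Setd1a (0.48), and the H3K36 methyltransferases in 4 of 4, led by Setd2 (0.44) and Nsd1 (0.42). H3K36me3 calls toward ExE were thus spread over all 4 lists on the deposited scale, beside the 31% of all genes, but not under the other scalings. After quantile normalization 0 other PRC2 components, 5 PRC1 genes and 0 methyltransferase genes of either kind were called higher, and 1, 3 and 0 lower. After enrichment normalization 3, 5 and 0 were called higher and 1, 2 and 0 lower.

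H3K27me3 at start sites was lower in ExE at 2 of 4 other PRC2 components and higher at 0, beside 10.1% of all genes called lower. On the deposited scale 15.7% of all genes were called there in either direction, 20.6% over gene bodies and 9.91% for H3K4me3 at start sites. Epop, which joins the Mtf2 and Phf19 form of the complex, had a mean of 3.09 RPKM in epiblast and 0.646 in ExE, a difference of -1.67 (limma adjusted p = 0.000315), and Lcor had -0.78. Of the PRC1 genes, 7 of 20 were lower and 3 higher. Among the 7 were Cbx8, with 4.76 RPKM in epiblast and 1.37 in ExE (-1.48), and Bmi1, with 4.21 and 1.70 (-1.09). One of 11 H3K4 methyltransferase genes (Kmt2c, -0.77) and 1 of 4 H3K36 methyltransferases (Nsd2, -0.97) were lower. Over gene bodies, 1 of 4 other PRC2 components (Epop, -1.24) and 5 of 20 PRC1 genes were lower, with Bmi1 at -1.65, 2 PRC1 genes were higher, and no methyltransferase gene was called, on the deposited scale. After quantile normalization 1 H3K4 methyltransferase gene was higher and 1 lower, and after enrichment normalization 4 PRC1 genes were higher. For H3K4me3 at start sites, no other PRC2 component and no methyltransferase gene was called by limma on the deposited scale, and 3 of 20 PRC1 genes were lower, among them Kdm2b, with 45.8 RPKM in epiblast and 23.3 in ExE (-0.96), and Phc1, with 31.2 and 18.3 (-0.74). For H3K27me3 at start sites, 8 and 9 PRC1 genes were lower and 2 and 3 higher after enrichment and quantile normalization, and 2 other PRC2 components were lower and 0 higher under each. After enrichment normalization 1 H3K4 methyltransferase gene was also higher. For H3K4me3 the PRC1 counts became 0 lower and 1 higher after enrichment normalization and 6 lower and 2 higher after quantile normalization. One other PRC2 component was higher for H3K4me3 under each of these scalings, and 1 H3K4 and 1 H3K36 methyltransferase gene were lower after quantile normalization.

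Whether maternal loss of oocyte DNA methylation changed the marks at these genes was asked by comparing matDKO/CAST with B6/CAST, whose libraries also served in the tissue comparisons. No member was called by limma for any mark. For H3K4me3, 0 of 8 were called in epiblast and in ExE (0.00481% of all genes in each), and 0 of 8 were at an unadjusted p under 0.05 or called by edgeR. For H3K27me3 at start sites, 0 of 8 were called in epiblast (0.00481%) and in ExE (0%), with 3 and 1 at an unadjusted p under 0.05, respectively, and 0 by edgeR in both. The largest of these was at Ezh2, whose matDKO/CAST libraries read 0.0547 and 0 RPKM in epiblast and 0.214 and 0.323 in ExE, below or near input throughout (-0.72 in epiblast, adjusted p = 0.157, and 0.44 in ExE, adjusted p = 0.771). The difference between the tissues was called for 0 of 8 members for H3K4me3 and H3K27me3 by limma (0% of all genes in each). For H3K27me3 edgeR called Ezh2, at 4.88 (edgeR adjusted p = 0.0488, limma adjusted p = 0.171), beside 0.0631% of all genes. That value draws on the matDKO/CAST epiblast library at 0 RPKM. Phf19 H3K27me3 differed by -0.42 in epiblast (adjusted p = 0.343).

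For H3K36me3 in ExE limma called 0 of 8 (0.0337% of all genes), 5 were at an unadjusted p under 0.05 and edgeR called 3 (5.68% of all genes by edgeR). The members' median estimate was -0.31 in ExE and -0.0729 in epiblast as deposited, but the order turned under other scalings, to -0.20 and -0.32 after enrichment normalization and -0.0801 and -0.15 after quantile normalization. Suz12 read 2.56 and 2.50 RPKM in matDKO/CAST ExE against 3.88 and 3.89 in B6/CAST ExE, a difference of -0.54 (SE 0.11, adjusted p = 0.112). Eed read 2.63 and 2.52 (-0.50, SE 0.13, adjusted p = 0.137) and Mtf2 2.49 and 2.29 (-0.49, SE 0.11, adjusted p = 0.116), each below both B6/CAST libraries. The lowest wild-type ExE libraries were of CAST/B6 and lay near the matDKO/CAST values, at 2.60 RPKM for Suz12, 2.37 for Eed and 2.17 for Mtf2. Those 3 were the genes edgeR called. Without B6/CAST epiblast replicate 1 or replicate 2, limma called 2 members, Suz12 and Mtf2 (adjusted p = 0.0309 and 0.0310 for each). In epiblast 0 of 8 were called (0.0481%), with 0 at an unadjusted p under 0.05 and 0 by edgeR, whereas enrichment normalization called Suz12 (-0.56, limma adjusted p = 0.0421) and Eed (-0.48, adjusted p = 0.0495) lower in matDKO/CAST. That scaling called 142 of all genes, 14 of them higher in matDKO/CAST, against 10 genes on the deposited scale. The interaction with tissue gave 0 of 8 by limma (0.00481%), 1 at an unadjusted p under 0.05 and 0 by edgeR.

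Reads assigned to the parental alleles were then examined. Of the 63 member peaks, 42 held at least 20 reads of 1 allele in at least 1 wild-type library: 12 of 17 for H3K4me3 in epiblast, 13 of 23 in ExE, 9 of 11 for H3K36me3 in epiblast, 6 of 6 in ExE, and for H3K27me3 0 of 3 in epiblast and 2 of 3 in ExE. A parental difference, tested as 1 term for the parent of the allele over both reciprocal crosses together, was called by edgeR at 0 of 42. This is beside 0.197% of peaks called for H3K4me3 in epiblast and 0.711% in ExE, 0.153 and 0.589% for H3K36me3, and 7.27% for H3K27me3 in ExE. One of the 42 was at an unadjusted p under 0.05, and DESeq2 called 0. At the Phf19 H3K27me3 peak in ExE the maternal share was 49.2 and 50.3% in B6/CAST and 54.0 and 57.9% in CAST/B6, on 189 to 365 reads a library, so both alleles carried the mark.

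A strain difference was tested as 1 term for the strain of the allele over both crosses together. It was called at 4 of 42 peaks, with 10 at an unadjusted p under 0.05 and 1 by DESeq2. In this fit, which has no library block, the backgrounds were 6.09% for H3K4me3 in epiblast and 19% in ExE, 23.3% for H3K27me3 in ExE, and 4.45 and 8.22% for H3K36me3. With the library as a block, which pairs the alleles of a library, 3 further H3K4me3 peaks were called: the Ezh1 start (0.30, adjusted p = 0.0130) and a peak within Jarid2 (-1.58, adjusted p = 0.0307) in epiblast, and the Jarid2 start (-0.17, adjusted p = 0.0130) in ExE. Without it, the same region gave both H3K4me3 calls, the 3′ end of Aebp2, a zinc-finger subunit that stimulates the complex. In epiblast (chr6:140676500-140683500) the maternal share was 80.0 and 62.7% in B6/CAST, where the mother is B6, 16.7 and 30.8% in CAST/B6, where the mother is CAST, and 72.3 and 72.2% in matDKO/CAST. The B6 allele was thus the higher one in all 4 wild-type libraries, by 1.51 on the log2 scale (edgeR adjusted p = 0.0368), on 13 to 55 reads a library. At 13 reads the Wilson 95% interval ran from 12.7 to 57.6%, and intervals here cover counting error only.

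In ExE the Aebp2 peak (chr6:140677000-140685500) had maternal shares of 65.5 and 67.3% in B6/CAST, 26.3 and 31.8% in CAST/B6 and 56.9 and 74.1% in matDKO/CAST, and the B6 allele was higher by 1.08 (edgeR adjusted p = 0.00111). The epiblast call was lost without B6/CAST replicate 1 (1.25, adjusted p = 0.235), CAST/B6 replicate 2 (1.19, adjusted p = 0.504) or CAST/B6 replicate 3 (1.76, adjusted p = 0.102), and the ExE call without CAST/B6 replicate 1 (1.01, adjusted p = 0.0556). The Aebp2 start site itself was not called. The third call was an H3K27me3 peak in ExE (chr7:89990000-89993000), 9017 bases beyond the start end of Eed, with maternal shares of 32.0 and 47.4% in B6/CAST and 76.9 and 60.7% in CAST/B6, and of 47.1 and 12.5% on 17 and 8 reads in matDKO/CAST. The CAST allele was higher there by 0.99, printed as -0.99 for B6 over CAST (adjusted p = 0.00767), on 19 to 39 reads in each wild-type library, and the call was lost without B6/CAST replicate 1 (-0.73, adjusted p = 0.239) or CAST/B6 replicate 1 (-0.69, adjusted p = 0.209).

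The fourth was H3K36me3 over the first part of Jarid2 in ExE (chr13:44731500-44815500), with maternal shares of 58.1 and 58.3% in B6/CAST, 45.3 and 46.3% in CAST/B6 and 52.2 and 47.7% in matDKO/CAST. The B6 allele was higher by 0.29 (adjusted p = 0.0410), and the call was lost when any 1 of the 4 libraries was left out, at 0.28 to 0.30 (adjusted p = 0.130 to 0.217). The 2 wild-type crosses did not overlap, and the matDKO/CAST shares lay between them.

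**Figure D4:**
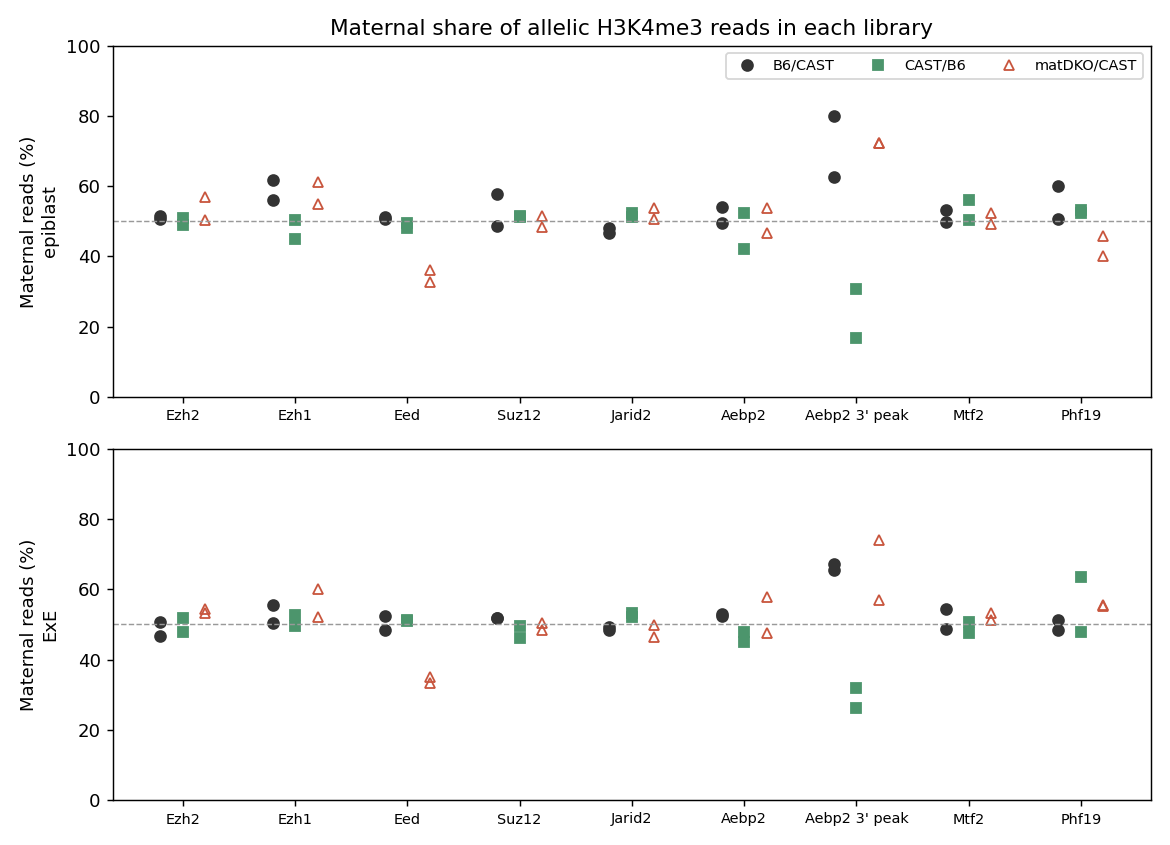
Maternal share of allelic reads (percent) in each library at the H3K4me3 peaks over the members' start sites and at the peak at the 3′ end of Aebp2, in epiblast and ExE; each point is 1 library, and colours give the cross. At the Eed start-site peak the matDKO/CAST points, at 32.7 to 36.2%, lie apart from both wild-type crosses in each tissue. At the Aebp2 3′ peak the reciprocal crosses lie on opposite sides of 50%.

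The change of the parental ratio in matDKO/CAST relative to B6/CAST was called by edgeR at 2 of 42 peaks, beside 0.674% of peaks for H3K4me3 in epiblast, 0.892% in ExE, 0.163 and 0.363% for H3K36me3 and 0.742% for H3K27me3 in ExE. Both calls were the H3K4me3 peak over the start of Eed, 1 in each tissue. Calls toward a lower maternal share were 0.059% of peaks in epiblast and 0.0819% in ExE. Another 3 peaks were at an unadjusted p under 0.05 (5 in all), and DESeq2 called 2.

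In epiblast the Eed peak (chr7:89977500-89986500) had a maternal share of 51.3 and 50.5% in B6/CAST, 48.1 and 49.5% in CAST/B6, and 32.7 and 36.2% in matDKO/CAST. In ExE (chr7:89975000-89984000) the shares were 52.3 and 48.4% in B6/CAST, 50.9 and 51.4% in CAST/B6, and 33.2 and 35.0% in matDKO/CAST. All 8 wild-type libraries were near 50% and all 4 matDKO/CAST libraries were at or below 36.2%, on 224 to 1458 reads a library. Wilson 95% intervals of the matDKO/CAST shares reached no higher than 42.6%, and those of the wild type no lower than 44.3%. The maternal to paternal ratio was lower by 1.07 in epiblast and by 1.03 in ExE on the log2 scale, written as -1.07 (edgeR adjusted p = 0.0105) and -1.03 (adjusted p = 0.00888).

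With the library as a block, the change at Eed was called at -1.08 in epiblast (edgeR adjusted p = 1.94e-08) and -1.06 in ExE (adjusted p = 1.01e-19). Without the block, and with 2 libraries in a group, the Eed call depended on single libraries. In epiblast it was lost without matDKO/CAST replicate 1 (-0.98, adjusted p = 1.00) or replicate 2 (-1.13, adjusted p = 0.292), and in ExE without B6/CAST replicate 1 (-0.90, adjusted p = 1.00) or replicate 2 (-1.12, adjusted p = 0.336), whereas the estimate stayed between -1.15 and -0.90 in every such fit. Over all H3K4me3 peaks the maternal share was 49.2 to 52.9% in the same libraries. The total H3K4me3 at the Eed start did not pass the test, with 35.2 and 27.1 RPKM in matDKO/CAST epiblast against 38.3 and 31.1 in B6/CAST (-0.16, limma adjusted p = 1.00), and 28.6 and 35.5 against 35.2 and 32.7 in ExE (-0.09, adjusted p = 1.00). H3K36me3 over Eed in ExE had maternal shares of 52.3 and 54.5% in B6/CAST, 49.8 and 48.9% in CAST/B6 and 48.0 and 35.0% in matDKO/CAST, a change of -0.86 that was not called (edgeR adjusted p = 0.302) but was called in the fit with the library as a block, which pairs the alleles of a library (adjusted p = 0.0427). The start of Eed overlaps the divergent gene E230029C05Rik, so the peak cannot be divided between them.

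A lower maternal share was also called at 2 neighbours of Eed, among 16 informative H3K4me3 peaks within 1 Mb in epiblast and 19 in ExE, Eed included. Over all H3K4me3 peaks of that interval other than those of Eed the maternal share was 45.9 and 46.2% in matDKO/CAST epiblast and 46.4 and 43.4% in matDKO/CAST ExE, against 47.0 to 51.8% in the 8 wild-type libraries. In this interval, the H3K4me3 peak of Picalm (chr7:90128000-90134500), which encodes an adaptor of clathrin-mediated endocytosis, went from a pooled maternal share of 53.8% in B6/CAST to 33.9% in matDKO/CAST in epiblast (-1.27, edgeR adjusted p = 0.0105) and from 51.8 to 30.4% in ExE (-1.40, adjusted p = 0.000792). Tmem126b, which encodes an assembly factor of mitochondrial complex I, went from 51.9 to 35.0% in epiblast (-1.19, adjusted p = 0.0419) and from 50.4 to 30.5% in ExE (-1.28, adjusted p = 0.00109). For Eed the pooled shares were 51.0 and 33.4% in epiblast and 50.6 and 34.0% in ExE. Other genes in the interval were not called, among them Tmem126a (-0.43 in epiblast and -0.41 in ExE) and l7Rn6 (-0.49 and -0.51). Allele assignment also differed between the crosses: for matDKO/CAST, variants shared by 129 and CAST were left out and 129-assigned reads were added to the maternal side. Whether the mothers carried 129 sequence at this place, and the part of it in the lower share, was not tested.

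**Figure D5:**
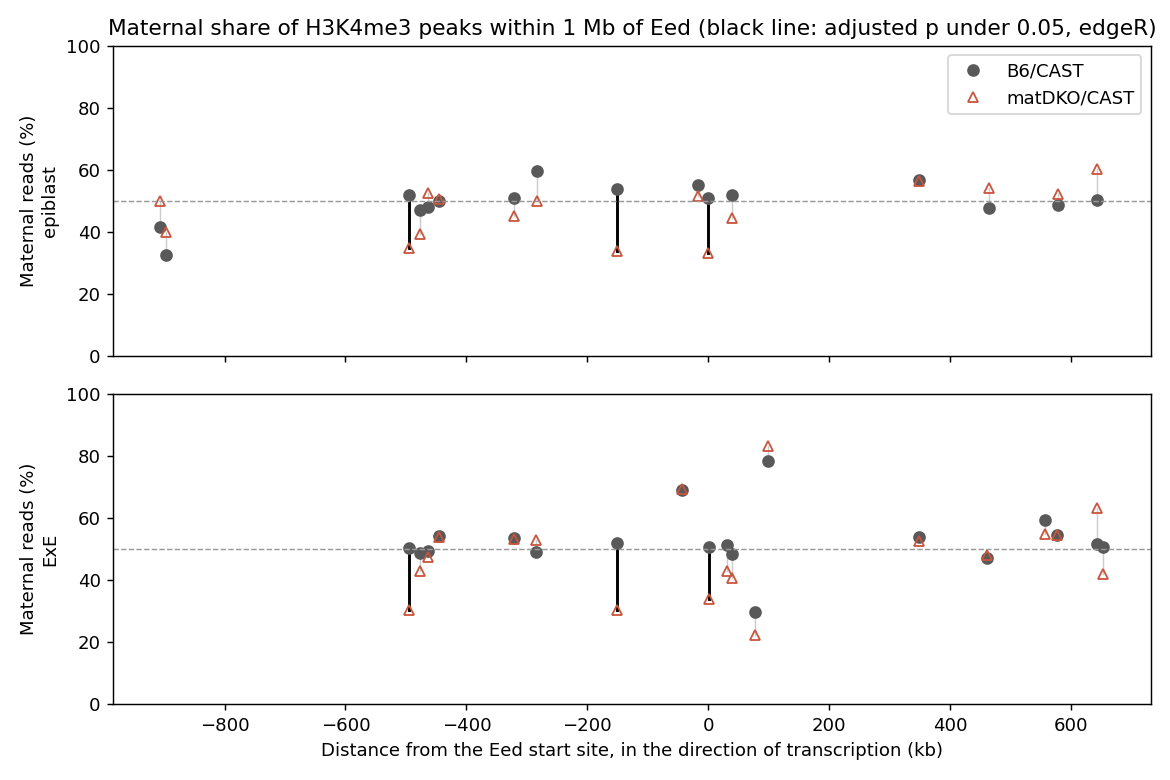
Pooled maternal share (percent) of H3K4me3 peaks within 1 Mb of the Eed start in B6/CAST and matDKO/CAST, in epiblast and ExE, by distance from the start in kb. Each point is 1 peak, and black lines join the values of peaks with an edgeR adjusted p under 0.05 for the change. The joined peaks, at Eed, Picalm and Tmem126b, fall from 50.4 to 53.8% in B6/CAST to 30.4 to 35.0% in matDKO/CAST.

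Finally, the genes whose levels over the 18 groups of mark, tissue and cross were most like each member's were found as the smallest root mean square log2 difference among 20779 other genes. The nearest to Ezh2 was Ccni (0.11), to Ezh1 Nupl2 (0.12), to Eed Srsf11 (0.09), to Suz12 Akr1a1 (0.11), to Jarid2 Arid4b (0.13), to Aebp2 Cnih4 (0.11) and to Mtf2 Adnp (0.07). For Phf19 it was Ifnlr1, at 0.21, followed by Tbc1d8, also at 0.21, where the median gene was at 1.42. Phf19 thus had no gene as near to it as the other members had.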

How the data were processed

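Chromatin was profiled in 36 ChIP and 15 input libraries. The authors trimmed reads with Trim Galore (0.4.4) and aligned them with Bowtie2 (2.3.2) to a strain-masked GRCm38 (versions from the submitters' processing notes), and assigned reads to alleles with SNPsplit. For matDKO/CAST they left out variants shared by 129 and CAST and added 129 reads to the maternal side. The authors called peaks with chromstaR per wild-type cross and tissue, replicates together, and deposited allelic read counts over the peaks combined per mark and tissue. The deposited RPKM values were made by the authors in SeqMonk as reads in 1 kb windows, scaled to window length and to each library's mapped reads. All sample columns were used (0 left out).

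RPKM windows were averaged over each of 20780 autosomal protein-coding genes, or over 1 kb on either side of the transcript start with the most H3K4me3 in the 12 H3K4me3 libraries. Groups were compared with limma 3.58.1 in R 4.3.3 on log2(RPKM + 0.5), over all genes, with 1 term for each group of a mark, two-sided, with Benjamini-Hochberg adjustment and a threshold of 0.05. Fold changes on this scale understate those of low genes. Whole reads were recovered from 100% of RPKM values (tolerance 0.1) and tested with edgeR as an alternative. Allelic counts were tested over all peaks with edgeR 4.0.16 (quasi-likelihood) as the change of the allele ratio, and with DESeq2 1.42.0 as an alternative. Peaks were used where at least 1 wild-type allele column held 20 reads. In enrichment normalization each library was scaled by its own 40th and 99th percentiles. Python 3.11.15 was used for extraction.

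All 8 members are described. Of the other lists the 2 called genes with the largest differences are named, besides counts, except 1 that is not reported here. Members, lists and comparisons were chosen with earlier results of these data known, and the comparisons within and between crosses were added after the data were seen. Replicate pairs differed by more than sampling noise (chi-square per degree of freedom 1.62 to 21.7). Same-numbered H3K4me3 libraries of a cross deviated together between tissues (correlation 0.365 to 0.534). Those of different crosses, which cannot share embryos, correlated at -0.538 to 0.570 within a tissue, so the numbers are not shown to mark matched pools. A fit with the replicate number as a block was made. It called 0 of 8 members, as without it, and 1184 against 2059 of all genes. For the other marks, same-numbered libraries of a cross correlated between tissues at -0.264 to 0.262. On simulated data with 200 genes changed by 1 on the log2 scale, the tissue tests found 87% for H3K4me3, 93% for H3K27me3 at starts, 99% over bodies and 98.5% for H3K36me3. The simulated noise was independent between libraries and had no floor. On log2(RPKM + 0.5) a drop of 1 cannot occur near 0 RPKM, and the members' largest tissue difference was -0.87. These shares therefore do not give the power for the members.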

Additional observations from a re-analysis of the deposited data

Results flagged for a closer look

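Each value here comes from a test of a difference between groups and is given without an explanation. The maternal to paternal ratio of H3K4me3 at the Eed start differed between matDKO/CAST and B6/CAST embryos by -1.068 on the log2 scale in epiblast and by -1.032 in ExE, lower in matDKO/CAST in both of its libraries in each tissue. The ratio of the alleles differed between the reciprocal crosses at 4 peaks. For the B6 over the CAST allele these were 1.513 in epiblast and 1.084 in ExE for H3K4me3 at the 3′ end of Aebp2, -0.9933 for H3K27me3 upstream of Eed in ExE, and 0.2898 for H3K36me3 over Jarid2 in ExE.

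The difference in gene-body H3K36me3 between ExE and epiblast differed between the wild-type crosses at 4 members, with values for CAST/B6 minus B6/CAST of -0.8567 at Eed, -0.7121 at Suz12, -0.6519 at Aebp2 and -0.9009 at Mtf2, on the deposited scale. After enrichment or quantile normalization none of the 4 was called by limma. Over all H3K36me3 libraries, matDKO/CAST included, mapped reads ran from 2090000 to 12600000. The lowest was matDKO/CAST epiblast replicate 2, which is in neither wild-type cross, and each wild-type library held more. The part of depth was not tested.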

How the results depend on the processing

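The counts are of 8 members, or of the informative peaks. For H3K4me3 between tissues (0 called), enrichment normalization gave 1, quantile normalization 2 and edgeR 2, while the count over all genes went from 2059 to 1299, 4899 and 4756. For H3K27me3 at start sites (2 called), the count was 1 with a pseudocount of 0.1, a filter at a mean of 0.5 RPKM, enrichment normalization, quantile normalization, windows of 2 kb on either side, within B6/CAST or within CAST/B6, and 1 to 2 when single libraries were left out. Jarid2 was the call lost, and edgeR called 5552 genes against 3254. Over gene bodies H3K27me3 (0 called) gave 1 after quantile normalization. For H3K36me3 (7 called, 7732 of all genes) enrichment normalization gave 2 (2715 genes), quantile normalization 2 (2422) and CAST/B6 alone 1 (980). There the sign changed for Jarid2 (-0.126), Suz12 (-0.0321) and Mtf2 (-0.0436) under enrichment normalization, for Ezh2 (-0.0453), Suz12 (-0.0173), Jarid2 (-0.237), Aebp2 (-0.00669) and Mtf2 (-0.0494) under quantile normalization, for Mtf2 (-0.112) and Jarid2 (-0.112) within CAST/B6, and for Jarid2 (-0.0923) with edgeR. Enrichment normalization shifted the median H3K4me3 difference of all genes to 0.36 and put all 8 members above 0.

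For matDKO/CAST (0 called), edgeR gave 1 for the H3K27me3 interaction and 3 for H3K36me3 in ExE, enrichment normalization gave 2 for H3K36me3 in epiblast (Suz12 and Eed, both lower), and leaving out single libraries gave 0 to 2 for H3K36me3 in ExE (Suz12 and Mtf2). Strain calls (1 each) became 0 with DESeq2 for H3K27me3 in ExE, H3K36me3 in ExE and H3K4me3 in epiblast. They also became 0 for H3K27me3 with 20 reads in each cross, for H3K4me3 in epiblast with library totals, and for H3K36me3 in ExE and H3K4me3 in epiblast at an adjusted p of 0.01. Without single libraries they were 0 to 1 for H3K27me3 in ExE and for H3K4me3 in each tissue, and 0 to 0 for H3K36me3 in ExE. The change at Eed (1 in each tissue) became 0 in epiblast with no filter on low counts or at an adjusted p of 0.01, and was 0 to 1 without single libraries in each tissue. The causes of these changes were not tested.

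The replicate block left the members' tissue counts at 0, 2, 0 and 7, with 1184, 4465, 5888 and 8101 of all genes. With the library as a replicate block, which compares the alleles of 1 library, strain calls were 3 for H3K4me3 in epiblast (Aebp2, Ezh1 and a Jarid2 peak) and 2 in ExE (Aebp2 and Jarid2), and the change for H3K36me3 in ExE (0 without it, 0 to 1 without single libraries) was called at 1, Eed. The interaction of tissue and cross for H3K36me3 (4 called, 1777 of all genes) gave 0 after enrichment normalization (19 genes) and 0 after quantile normalization (0 genes). In all, 468 counts stayed within 1.5 times and 54 moved. Of single-member values 731 kept their call status, 36 of them with the other sign, 48 lost and 9 gained a call, and 8 changed sign with a call on either side. Over the start sites used here, H3K27me3 at members other than Phf19 is limited by its level, within or below the range of input.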
